A study of Mus musculus with 10 samples.

Results

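The genes described here are the 6 ligand and receptor genes of the CXCR3 and CXCR6 chemokine axes, Cxcl9, Cxcl10, Cxcl11, Cxcr3, Cxcl16 and Cxcr6. They were chosen by gene symbol, and every probe set annotated to exactly 1 of these symbols was taken, which gave 10 probe sets of 34945 with a single symbol. At the level of genes they are 6 of 18193. Affymetrix arrays were used to read the RNA of 10 B16 tumors (B16 is a mouse melanoma line that can be grafted), on the C57BL/6 strain background. The groups are 5 wild-type tumors and 5 tumors of Bach2-deficient genotype, both with no stated treatment, time point, age or sex. Bach2 encodes a transcriptional repressor of lymphocytes. The labels do not say which part of Bach2 is missing, whether the host or the tumor cells lack it, or whether each tumor is from an animal of its own. The p-values therefore refer to the scatter among these 10 samples only, part of which may be technical. RNA came from whole dissociated tumors, so that a higher level cannot be told apart as more cells of a type or more RNA in each cell.

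CXCL9, CXCL10 and CXCL11 are small secreted chemokines that cells release when interferon-γ reaches them, and all of them act on CXCR3, a G protein-coupled receptor of activated T cells and NK cells. CXCL16 is made as a membrane-bound protein by macrophages, dendritic cells and other cells, and is both an adhesion molecule and, once cut off by a protease, a soluble attractant for cells with its receptor CXCR6. CXCR6 marks activated and tissue-resident T cells and related lymphocytes, and both axes are known for drawing and holding such cells in tumors. C57BL/6 mice carry a defect in Cxcl11 that prevents a normal protein, and the RefSeq gene table for this strain (assembly GRCm38.p6) lists Cxcl11 as a transcribed pseudogene with 0 proteins, while the other 5 genes are protein-coding. The same table places Cxcl9, Art3, Cxcl10 and Cxcl11 in that order on chromosome 5, Cxcl16 on chromosome 11, Cxcr6 on chromosome 9 and Cxcr3 on chromosome X.

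All values are log2 expression after RMA, a method that corrects background and brings the arrays to a common distribution. Array medians lay between 5.80 and 5.88. The brightest Bach2 probe set read 5.93 to 7.78 in wild type and 4.96 to 6.37 in Bach2-deficient tumors (change -1.07, SE 0.38, limma adjusted p = 0.0551), and without the deleted part being known this checks the labels only in part. The 7 melanocyte markers averaged 12.67 to 12.84 on the wild-type arrays and 12.19 to 12.92 on the Bach2-deficient arrays, so both groups read as melanoma. The poly-A spike-in controls read 11.94 to 12.37 on wild-type and 9.93 to 10.17 on Bach2-deficient arrays without overlap. The hybridization controls read 11.96 to 12.64 and 11.55 to 11.88, also without overlap. These technical differences cannot be told apart from genotype. Xist, an RNA of female cells, was at 11.36 to 12.23 on all wild-type arrays and at 11.86 on Bach2-deficient replicate 2, and at 4.76 to 6.61 on the other Bach2-deficient arrays. Sex therefore moves with genotype except in that replicate.

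Of the 6 genes, 5 rose in the Bach2-deficient tumors, 0 fell and 1, Cxcl11, did not pass the test (limma with Benjamini-Hochberg adjustment over all genes, called at an adjusted p under 0.05; each gene by its brightest probe set). Among all genes tested 16.3% rose, 12.4% fell and 28.7% were called in either direction. The 5 genes that rose read higher on every Bach2-deficient array than on any wild-type array, which held for 11.2% of all genes, and 7.67% of all genes read lower on every one. The median change was 2.11 for the 6 genes and -0.06 for all genes. At the level of probe sets 8 of 10 rose and 1 fell, beside 14.1% and 10.1% of all probe sets. The same 8 read higher on every Bach2-deficient array than on any wild-type array, which held for 9.81% of all probe sets, and 0 of the 10 read lower on every one, beside 6.88%.

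**Figure D1:**
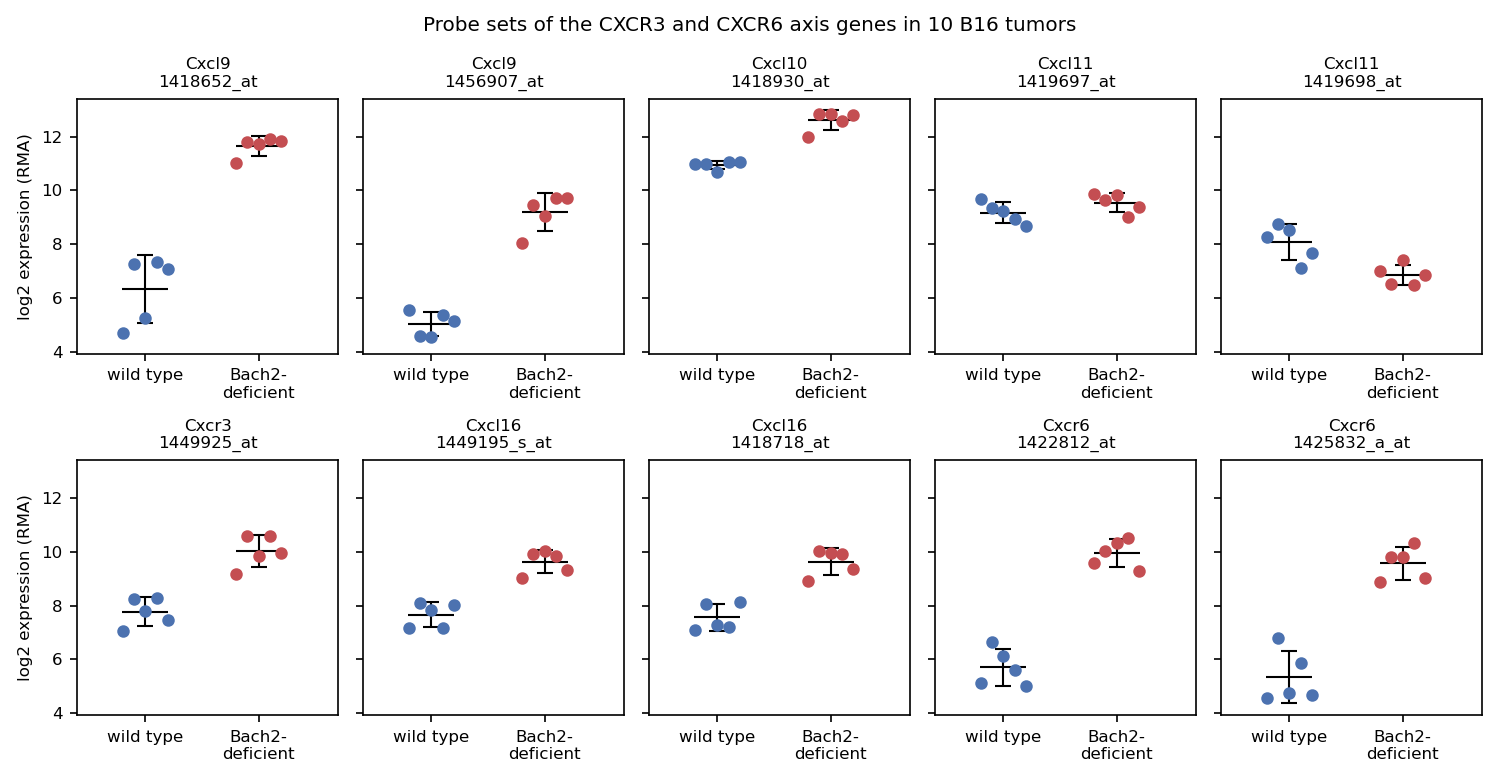
Log2 expression of the 10 probe sets on each array (points; 5 wild type in blue, 5 Bach2-deficient in red, ordered by replicate number from left to right), with the mean (wide bar) and SD (error bar). The groups are apart for the probe sets of Cxcl9, Cxcl10, Cxcr3, Cxcl16 and Cxcr6 and overlap for both probe sets of Cxcl11, of which 1419698_at lies lower in the Bach2-deficient tumors.

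Among the ligands of CXCR3, Cxcl9 changed most. Probe set 1418652_at read 4.69, 7.27, 5.26, 7.33 and 7.09 in wild-type replicates 1 to 5. In Bach2-deficient replicates 1 to 5 it read 11.00, 11.80, 11.72, 11.92 and 11.85. Wild-type tumors spread over 2.64, with replicates 1 and 3 low, while 4 of the 5 Bach2-deficient tumors lay close together with replicate 1 below them. The means were 6.33 ± 1.25 and 11.66 ± 0.37 (SD, n = 5 each), a rise of 5.33 (SE 0.52, 95% interval 4.18 to 6.48, limma adjusted p = 0.000205) or 40.1-fold, and the fourth largest rise of all genes. The dimmest 30% of genes had means of at most 4.98, and wild-type replicate 1 lay under it, so the size of the fold is not exact.

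The second Cxcl9 probe set, 1456907_at, read 5.53, 4.58, 4.54, 5.36 and 5.15 in wild type and 8.05, 9.45, 9.05, 9.72 and 9.71 in the Bach2-deficient tumors. It rose by 4.17 (SE 0.33, limma adjusted p = 0.000132 over all probe sets), again with replicate 1 lowest among the Bach2-deficient tumors. Wild-type replicates 2 and 3 lay under 4.98, so this size is inexact too. The order of the wild-type tumors was not shared between the probe sets, since replicate 1 was the highest here and the lowest in the other. The per-array difference between the probe sets changed by 1.16 between genotypes (exact permutation p = 0.0873; adjusted p = 0.175 over the 4 genes with a pair of probe sets).

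Cxcl10, the neighbour of Cxcl9 and likewise an interferon-induced attractant, was high in both groups. Its only probe set, 1418930_at, read 10.99, 11.00, 10.70, 11.05 and 11.06 in wild type. In the Bach2-deficient tumors it read 12.00, 12.84, 12.85, 12.60 and 12.79. Wild-type tumors lay within 0.36 of each other and all Bach2-deficient tumors lay at least 0.94 above them. The rise of 1.65 (SE 0.17, 95% interval 1.28 to 2.02, limma adjusted p = 0.000229) amounted to 3.15-fold. On the same arrays the change of Cxcl9 exceeded that of Cxcl10 by 3.67 (95% interval 2.68 to 5.06; exact permutation p = 0.00794, the smallest this test can give; adjusted p = 0.0129 over 13 pairs of genes). Such a difference compares 2 probe signals, whose affinities are not the same, and not molecules. It was taken with 1418652_at, and would be smaller with 1456907_at, which rose by 4.17.

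Since both genes rose and lie close together, the 250 bases before their start sites are shown, from RefSeq promoter entries on GRCm38.p6, which matched 4 of the 6 genes by symbol (Cxcl9, Cxcl10, Cxcr3 and Cxcr6). Each is given from 5′ to 3′ on the gene's own strand (minus strand of chromosome 5), with capitals for every match to a searched motif. The Cxcl9 stretch is chr5:92328080-92328329 and the Cxcl10 stretch chr5:92348890-92349139.
Cxcl9: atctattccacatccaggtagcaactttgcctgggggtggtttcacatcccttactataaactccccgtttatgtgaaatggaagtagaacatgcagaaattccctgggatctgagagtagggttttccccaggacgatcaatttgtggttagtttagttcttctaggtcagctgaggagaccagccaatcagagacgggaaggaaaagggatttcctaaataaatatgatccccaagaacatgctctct
Cxcl10: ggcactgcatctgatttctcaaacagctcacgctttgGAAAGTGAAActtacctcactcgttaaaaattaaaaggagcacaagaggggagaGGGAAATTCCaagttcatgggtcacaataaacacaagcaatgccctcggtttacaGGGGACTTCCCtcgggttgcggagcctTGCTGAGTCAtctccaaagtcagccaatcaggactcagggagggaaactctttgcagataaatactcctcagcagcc

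The motifs searched on both strands were the interferon-stimulated response element (GAAA, any 2 bases, GAAA; in 2.98% of all 32851 promoter stretches of this length), the STAT site called GAS (TTCNNNGAA, 7.02%), the κB consensus of NF-κB (7.25%), a T-box site (AGGTGTGA, 1.12%), the AP-1 site (TGANTCA, 6.75%) and the longer site of TGC followed directly by the AP-1 site (0.353%), the core of the element that BACH proteins and their partners bind. Cxcl10 held GAAAGTGAAA from base 213 to 204 before the start. It held κB matches at 159 to 150 and, overlapping each other, at 104 to 95 and 103 to 94. It held TGCTGAGTCA at 77 to 68, which includes the AP-1 match. The κB letters searched were GGGRNNYYCC (R is A or G, Y is C or T, N is any base). The Cxcl9, Cxcr3 and Cxcr6 stretches held no exact match, and near matches were not counted. The search compared letters in a short window, and binding was not measured.

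Cxcl11, the third ligand of CXCR3, differed from its neighbours. Its brighter probe set, 1419697_at, read 9.68, 9.34, 9.23, 8.95 and 8.66 in wild type and 9.86, 9.63, 9.83, 9.0 and 9.37 in the Bach2-deficient tumors, and the groups overlapped. Its change was 0.37 (SE 0.22, 95% interval -0.12 to 0.85, limma adjusted p = 0.229). The interval leaves out changes as large as those of Cxcl9 and Cxcl10.

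The second Cxcl11 probe set, 1419698_at, went the other way. It read 8.26, 8.74, 8.54, 7.10 and 7.68 in wild type and 6.99, 6.52, 7.40, 6.49 and 6.86 in the Bach2-deficient tumors, and wild-type replicate 4 lay within the Bach2-deficient range. It fell by 1.21 on the log2 scale (SE 0.31, limma adjusted p = 0.0174 over all probe sets). The per-array difference between the Cxcl11 probe sets was 1.11 ± 0.52 in wild type and 2.69 ± 0.29 in Bach2-deficient tumors (SD, n = 5 each) with no overlap, a change of 1.58 (exact permutation p = 0.00794; adjusted p = 0.0317 over 4 genes). The gene therefore has no single direction on these arrays, and as the mean of its probe sets it changed by -0.42 (limma adjusted p = 0.202).

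Cxcl16, the only known ligand of CXCR6, rose on both of its probe sets. Probe set 1449195_s_at read 7.17, 8.11, 7.84, 7.18 and 8.04 in wild type. In the Bach2-deficient tumors it read 9.03, 9.92, 10.03, 9.86 and 9.34. Wild-type replicates 1 and 4 were low, and among the Bach2-deficient tumors replicates 1 and 5 were lowest. The rise was 1.97 (SE 0.26, 95% interval 1.40 to 2.54, limma adjusted p = 0.000631), or 3.91-fold. Probe set 1418718_at rose by 2.08 (SE 0.28), from a wild-type range of 7.10 to 8.14 to a range of 8.90 to 10.03. The 2 Cxcl16 probe sets stayed within 0.55 of each other on every array.

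The receptor genes rose too. Cxcr3 has the single probe set 1449925_at, which read 7.07, 8.26, 7.82, 8.29 and 7.46 in wild type. In the Bach2-deficient tumors it read 9.19, 10.61, 9.84, 10.61 and 9.95. Replicates 2 and 4 were the highest of the 5 in both groups, and the groups were apart by 0.90. The rise of 2.26 (SE 0.32, 95% interval 1.55 to 2.96, limma adjusted p = 0.000881) was 4.79-fold.

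Cxcr6 rose more. Probe set 1422812_at read 5.11, 6.65, 6.14, 5.59 and 5.03 in wild type. In the Bach2-deficient tumors it read 9.59, 10.03, 10.35, 10.51 and 9.29. The gap between the groups, 2.65, exceeded the spread within either of them. The rise of 4.25 (SE 0.34, 95% interval 3.49 to 5.01, limma adjusted p = 0.000110) was 19.0-fold and ranked 25 among the rises of all genes. The second probe set, 1425832_a_at, read 4.56 to 6.80 in wild type and 8.89 to 10.34 in the Bach2-deficient tumors and rose by 4.24 (SE 0.45), a size that is not exact since 3 of the wild-type arrays lay under 4.98. The change of Cxcr6 exceeded that of Cxcr3 by 1.99 on the same arrays (95% interval 1.17 to 2.78; exact permutation p = 0.00794, adjusted p = 0.0129 over 13 pairs).

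Ligand was then set against receptor on each array, as the difference of their log2 values, to ask whether both ends of an axis changed alike. Cxcl9 rose more than Cxcr3: the difference was -1.45 ± 0.96 in wild type and 1.62 ± 0.34 in Bach2-deficient tumors (SD, n = 5 each), a change of 3.07 (95% interval 2.17 to 4.31; exact permutation p = 0.00794, adjusted p = 0.0129 over 13 pairs). Cxcl10 and Cxcr3 were not shown to change unequally, with -0.60 and an interval from -1.36 to 0.11 (exact p = 0.143, adjusted p = 0.186), so the interval reaches from a rise of the ligand smaller by 1.36 to one larger by 0.11. Cxcl11 fell behind Cxcr3 by 1.89 (interval -3.13 to -0.67; exact p = 0.0159, adjusted p = 0.0229), although both groups overlapped. Cxcl16 rose less than Cxcr6: its difference went from 1.97 ± 0.63 to -0.32 ± 0.29, a change of -2.28 (interval -3.02 to -1.65; exact p = 0.00794, adjusted p = 0.0129). In the CXCR3 axis the ligand Cxcl9 thus changed more than the receptor, and in the CXCR6 axis the receptor changed more than the ligand. The Cxcl9 values here are those of probe set 1418652_at. The other probe set, 1456907_at, rose by 4.17, still more than Cxcr3 (2.26), so the excess would be smaller with it. On every Bach2-deficient array Cxcl9 stood 2.64 to 3.35 further above its wild-type mean than Cxcr3 did above its own, and Cxcl16 stood 1.92 to 2.61 less far above than Cxcr6.

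**Figure D2:**
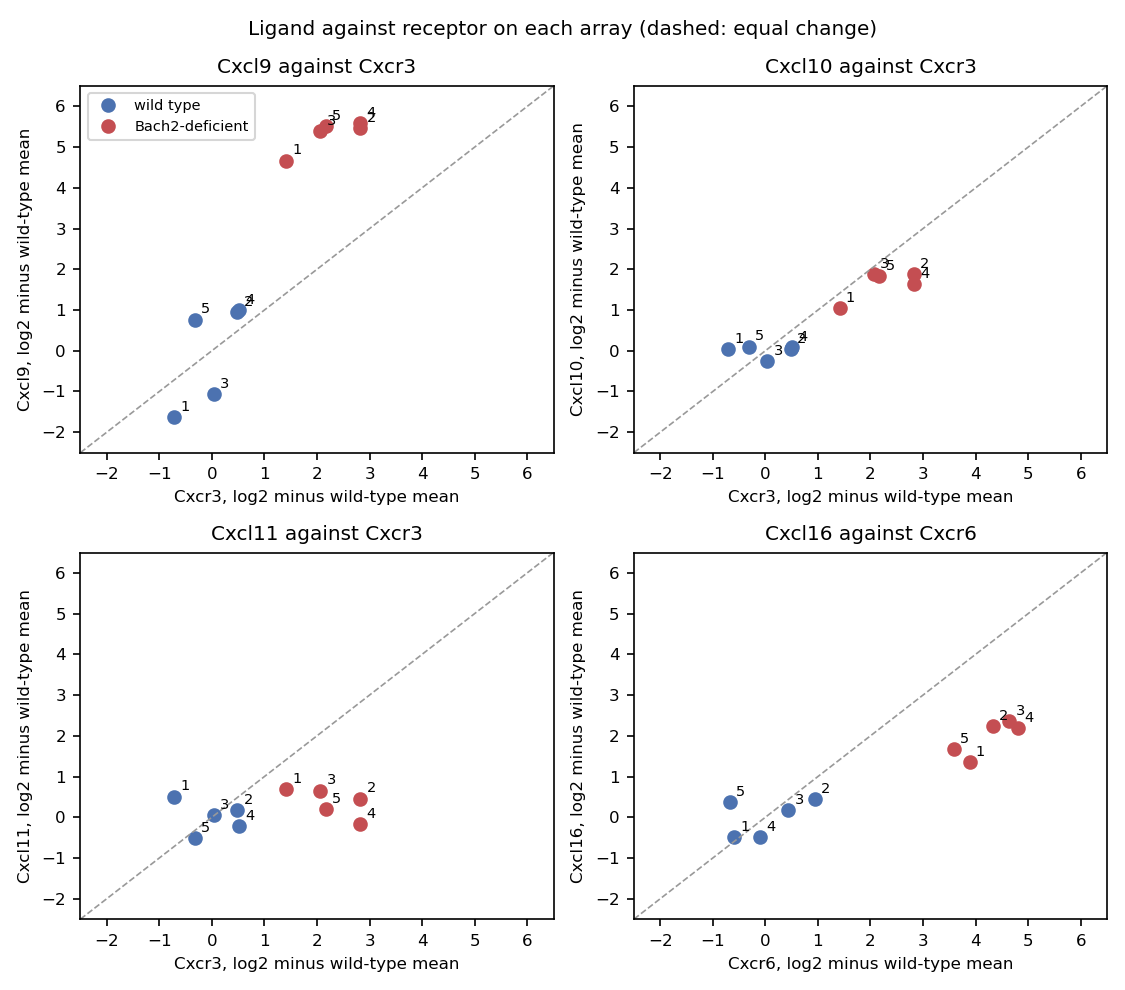
Each ligand (vertical axis) against its receptor (horizontal axis) on the 10 arrays, both as log2 minus that gene's wild-type mean; blue points are wild type, red points Bach2-deficient, numbers are replicates and the dashed line marks equal change. Red points lie above the line for Cxcl9, below it for Cxcl11 and Cxcl16, and just below it for Cxcl10, where the difference did not pass the test.

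The receptors were also set against T cell genes, since CXCR3 and CXCR6 are carried by lymphocytes. Cd3e, a chain of the T cell receptor complex, rose by 2.12 and Cd8a, a chain of the CD8 co-receptor, by 4.23. The change of Cxcr3 differed from that of Cd3e by 0.13 (interval -0.55 to 0.81; exact permutation p = 0.667, adjusted p = 0.788 over 13 pairs) and lay 1.97 under that of Cd8a (-1.97, interval -2.93 to -0.92; exact p = 0.00794, adjusted p = 0.0129). The change of Cxcr6 differed from that of Cd8a by 0.02 (interval -0.83 to 1.21; exact p = 0.984, adjusted p = 0.984) and exceeded that of Cd3e by 2.12 (interval 1.06 to 3.45; exact p = 0.00794, adjusted p = 0.0129). The intervals around the pairs that did not pass are wide, so these pairs are not shown to change alike. Cd3e rose less than the other listed chains of its complex, Cd3d (2.67), Cd3g (3.41) and Cd247 (3.48, wild-type mean under 4.98). Of the T cell markers only Cd4 (1.69) rose less than Cd3e. The comparisons with Cd3e thus depend on the chain taken. Cd8a rose by 3.61 to 5.27 over its 5 probe sets, and its partner chain Cd8b1 by 4.71 (wild-type mean under 4.98). The comparisons with Cd8a, taken by its brightest probe set, thus depend on the probe set and chain too. All 9 T cell markers rose, with a median of 2.71, and their mean level went from 6.30 to 7.89 over the wild-type arrays to 9.61 to 10.91 over the Bach2-deficient arrays; 3 of 3 measured NK and innate lymphoid markers rose, by 2.81 (Ncr1), 3.51 (Klra8) and 3.49 (Klre1), where the wild-type mean of Ncr1 lay under 4.98 and makes its size inexact. With the Xist term Cd3e and Klre1 did not pass. Their part in the rises of the receptors was not tested.

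The ligands were set against an inducer and a macrophage gene. Irf1, a transcription factor induced by interferon-γ, rose by 3.24, and Cxcl9 rose by 2.09 more (interval 1.14 to 3.24; exact permutation p = 0.00794, adjusted p = 0.0129 over 13 pairs). This excess is that of Cxcl9 probe set 1418652_at. It would be smaller with 1456907_at, which rose by 4.17. Csf1r, the growth factor receptor of macrophages, rose by 1.93, and the change of Cxcl16 differed from it by 0.04 (interval -0.61 to 0.66; exact p = 0.873, adjusted p = 0.946). Of 6 macrophage markers 4 rose, with a median of 1.10 and a mean level of 8.98 to 10.11 in wild type and 10.26 to 11.17 in Bach2-deficient tumors. Their changes were 2.10 (Adgre1), 1.93 (Csf1r), 1.29 (C1qa), 0.92 (Cd68), 0.49 (Mrc1) and 0.46 (Mertk). The comparison with Cxcl16 thus depends on the marker taken. Of 7 measured dendritic cell markers 5 rose, with a median of 1.12 and a mean level of 5.89 to 6.37 and 6.78 to 7.97; among them Itgax (2.27), Xcr1 (1.12) and Batf3 (1.33) had the smallest adjusted p-values, and both means of Xcr1 lay under 4.98. What part these cells had in the ligands was not tested. With the melanocyte marker mean as covariate 2 macrophage and 2 dendritic cell markers rose, and with the Xist term 2 macrophage markers.

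**Figure D3:**
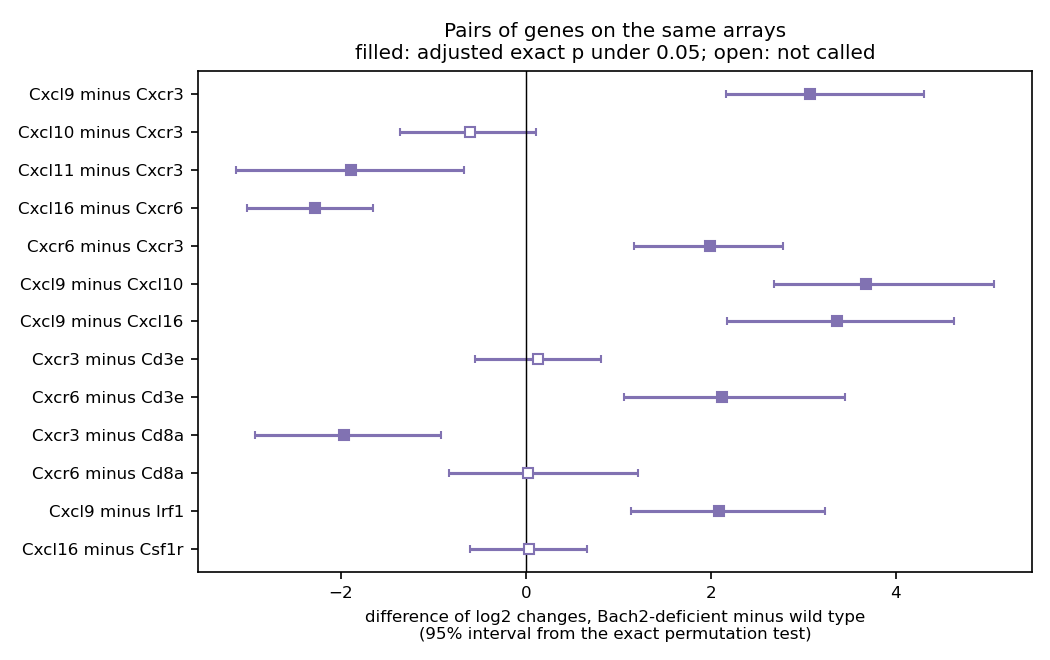
Difference between the log2 changes of 2 genes measured on the same 10 arrays (squares), with the 95% interval from the exact permutation test; filled squares passed at an adjusted exact p under 0.05. Cxcl9 (probe set 1418652_at) lies to the right of 0 against every gene it was paired with, Cxcl16 minus Cxcr6 lies to the left, and Cxcr3 minus Cd3e, Cxcr6 minus Cd8a, Cxcl16 minus Csf1r and Cxcl10 minus Cxcr3 span 0.

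Genes that act on the axes were read from fixed lists. Of 10 measured genes of the interferon and NF-κB route to the ligands 9 rose and 0 fell, with a median of 1.71 (all genes -0.06). Ifng, the inducing cytokine, rose by 5.84 from a wild-type mean of 4.95 that is under 4.98, so this size is not exact. Irf1 rose by 3.24 (limma adjusted p = 8.84e-05) and Ifngr1, a chain of the interferon-γ receptor, by 1.76. Ifngr2, its partner chain, changed by 0.40 and did not pass, except with array weights or without Bach2-deficient replicate 1. With the Xist term in the fit, or with the melanocyte marker mean as a covariate, 6 of the 10 rose.

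Of the proteases that cut these ligands, Dpp4, which trims and inactivates the CXCR3 ligands, rose by 2.35 (SE 0.38, limma adjusted p = 0.00164). Adam17, a sheddase, rose by 0.77, and Adam10, the sheddase best known for releasing CXCL16, changed by -0.05 (limma adjusted p = 0.684). That is its brightest probe set. Its other 3 probe sets changed by 0.36, 0.59 and 0.41, and none of them was called. Only Dpp4 passed with the Xist term or the melanocyte covariate. Among genes of the T-bet program, which switches on Cxcr3 in effector lymphocytes, Tbx21 itself rose by 4.06, Eomes by 3.67, Stat4 by 3.33 and Runx3 by 3.13, while Il12rb2 (0.66) did not pass (limma adjusted p = 0.0546). Tbx21 (4.44), Eomes (4.88) and Il12rb2 (3.47) had wild-type means under 4.98, which makes the size of their changes inexact.

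All 10 genes of chemokine receptor signalling and migration rose, with a median of 1.79. The smallest adjusted p-values belonged to Dock2, which activates Rac in migrating lymphocytes (2.96), the integrin chain Itgb2 (2.50) and its partner Itgal (2.99). The G protein subunits Gnai2 and Gnai3, expressed in most cells, rose by 0.86 and 0.45. With the Xist term or the melanocyte covariate 7 of these 10 rose.

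The rest of the CXC family was read in the same way. Of 11 other CXC chemokines 0 rose and 2 fell, beside 16.3% and 12.4% of all genes, with a median of 0.03. Ppbp, a platelet chemokine, fell by 1.30 (SE 0.35, limma adjusted p = 0.0186), and Cxcl17 fell by 0.45 with both group means under 4.98. Neither passed with the Xist term and Ppbp did not with the melanocyte covariate, and with median centring Pf4, another platelet chemokine, fell as well. The neutrophil attractants Cxcl1 (1.15, SE 0.86) and Cxcl2 (0.28, SE 0.35), which act on CXCR2, and the stromal chemokine Cxcl12 (-0.07, SE 0.31) did not pass. Of 4 other measured receptors 1 rose: Cxcr4, the receptor of CXCL12, by 0.59 (limma adjusted p = 0.0109), a call lost with the Xist term and with the melanocyte covariate. Cxcr2 (1.25, limma adjusted p = 0.0849) read higher on every Bach2-deficient array but did not pass, except with the replicate block or without Bach2-deficient replicate 3. Cxcr5 (0.31) and Ackr3 (-0.21) did not pass. The members of the 2 axes were not tested as a set against these genes.

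**Figure D4:**
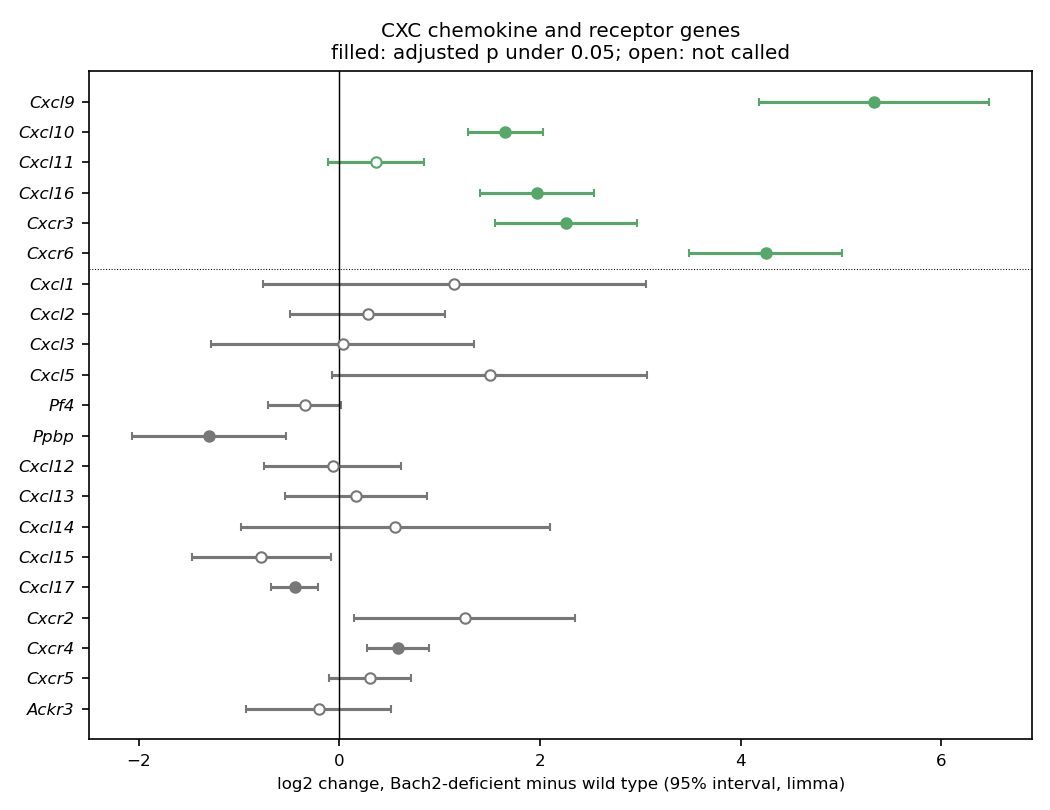
Log2 change (Bach2-deficient minus wild type, n = 5 each) with its 95% interval from limma for the 6 genes of the CXCR3 and CXCR6 axes (green, above the dotted line) and the other measured CXC chemokines and receptors (grey); filled points passed at an adjusted p under 0.05. Cxcl9 (5.33) and Cxcr6 (4.25) lie furthest to the right, and among the grey genes Ppbp and Cxcl17 fell and Cxcr4 rose.

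The genes most like each member were found as the smallest root mean square difference between profiles over the 10 arrays, each profile centred on its own mean. This likeness includes any shift between genotypes and is a description. Nearest to Cxcl9 were the granzyme gene Gzmb (0.30 on the log2 scale), the interferon-induced GTPase gene Gbp2 (0.36) and Slamf8 (0.42). Nearest to Cxcl10 were Xkr8 (0.14), Xaf1 (0.15) and Il13ra1 (0.16), and nearest to Cxcl16 were Cln3 (0.21), Cd300lf (0.21) and Rtp4 (0.23). Cxcr3 lay nearest to Ptprcap, which encodes a CD45-associated protein of lymphocytes (0.17), Traf5 (0.19) and Gimap1 (0.21). Cxcr6 lay nearest to the CD8 chain gene Cd8b1 (0.41), the T cell signalling gene Themis (0.44) and the death ligand gene Fasl (0.49). Nearest to Cxcl11 were Pak4 (0.18), 2610307P16Rik (0.21) and Coro2b (0.23), none of which was called. Of the member pairs Cxcl10 and Cxcl16 were the most alike (0.40) and Cxcl9 and Cxcl11 the least (2.70).

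Within the Bach2-deficient group replicate 1 stood low. It was the lowest of the 5 for 7 of the 8 probe sets whose groups did not overlap, the exception being 1422812_at of Cxcr6, where replicate 5 was lowest. The same tumor also read lowest in the group for Ifng (10.04), Irf1 (10.87), Tbx21 (7.15), Cd3e (11.88), Cd8a (10.92) and Csf1r (11.62), and highest for the melanocyte markers (12.92). Without it the changes were 5.49 for Cxcl9, 1.81 for Cxcl10, 2.12 for Cxcl16, 2.47 for Cxcr3 and 4.34 for Cxcr6. Bach2-deficient replicate 2, which had high Xist as the wild-type tumors had, read above the highest wild-type tumor for all 5 of these genes. Every Bach2-deficient tumor did so, and this is therefore no separate result for replicate 2. A fit that also holds the Xist state (high or low) takes the change from replicate 2 alone, 1 tumor against 5, and gave 5.47 for Cxcl9, 1.88 for Cxcl10, 2.25 for Cxcl16, 2.83 for Cxcr3 and 4.32 for Cxcr6. These are values of a lone tumor, and the spread in that fit comes from the other arrays, so that a call from it assumes that the tumor varies like them. With the melanocyte marker mean as covariate the changes of these genes were, in the same order, 5.14, 1.43, 1.55, 1.67 and 3.83, all called.

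Markers of other cells moved less uniformly. The melanocyte markers fell for 2 of 7 genes, Tyr (-0.68) and Dct (-0.33), with a median of -0.28; 4 fell with median centring, 5 without Bach2-deficient replicate 1, and 0 without replicate 2, without replicate 4 or with the Xist term. Of 4 endothelial markers Pecam1, which leukocytes also express, rose (2.00) and Cdh5 fell (-0.66, both means under 4.98). With the Xist term Cdh5 did not pass and Kdr rose as well. Of 5 fibroblast markers 3 fell, Col1a2 by 1.80, Col1a1 by 1.10 and Pdgfrb by 0.61. With the melanocyte covariate only Col1a2 fell, Pdgfrb did not pass with the Xist term, and Col1a1 did not pass with array weights or in 8 of 10 fits with 1 array left out, all but those without wild-type replicate 2 or Bach2-deficient replicate 3. Of 3 measured neutrophil markers Csf3r rose (1.60), a call lost with the Xist term and with the melanocyte covariate, and of 3 B cell markers 0 rose or fell. The 3 keratinocyte markers were under 4.98 in both groups and were not called, and of 3 red cell markers Slc4a1 (-5.13) and Alas2 (-4.16) fell, of which Alas2 did not pass with the melanocyte covariate.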

How the data were processed

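The values analysed are the log2 expression values the authors deposited, 1 column per tumor. RMA and Partek are named in the submitters' processing notes; no version of either is known here. They were used as deposited. Of 45101 probe sets, 64 controls, 932 with several symbols and 9160 with none were left out. Symbols came from the platform annotation. Where a gene had several probe sets, the one of highest mean over the 10 arrays stood for it. The limma package, version 3.58.1 under R 4.3.3, gave the changes (lmFit and eBayes with genotype as the only term) over all genes, and again over all single-symbol probe sets. Pairs of genes were compared by the exact 2-sided permutation test of per-array differences, with Benjamini-Hochberg adjustment over 13 pairs; 95% intervals invert that test. Both tests were tested on simulated data. No detection calls were used. Precision is limited by there being 5 arrays a group. The 6 genes, the gene lists, the pairs and the motifs were chosen with earlier results of these data known. Named genes were the 6 members, the partner of each pair, up to 3 called genes of each list by adjusted p (all of lists with up to 5 genes) and the 3 most like genes of each member. Ifngr2, Cxcl1, Cxcl2, Cxcl12, Pf4, Gnai2, Gnai3, Cd3d, Cd3g, Cd4, Cd68, Mrc1 and Mertk were named after their values were seen. Some listed genes, among them Nfkb1, Cxcr1, Klrb1c, Clec9a and Ly6g, are not analysed here.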

Additional observations from a re-analysis of the deposited data

Results flagged for a closer look

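In 3 of 46 groups of 5 values checked (the 10 probe sets and the 13 pairs, in each genotype) the lowest array stood apart from the next by a large share of the group's range; chance does so in about 1 of 20 groups. Cxcl9 (1418652_at) read 11.00 in Bach2-deficient replicate 1, under 4 tumors at 11.72 to 11.92. Cxcl10 (1418930_at) read 10.70 in wild-type replicate 3, under 4 tumors at 10.99 to 11.06. The difference Cxcl9 minus Irf1 was -0.27 in Bach2-deficient replicate 3, where Irf1 read 11.99, the highest of its group.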

How the results depend on the processing

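Cxcl9, Cxcl10, Cxcl16, Cxcr3 and Cxcr6 were called as rises in each of 19 alternative fits: 9 other settings and 10 with 1 array left out; the Xist setting rests on 1 Bach2-deficient tumor, assumed to vary like the others. Leaving out 1 array gave 4.92 to 5.58, 1.59 to 1.81, 1.84 to 2.12, 2.08 to 2.47 and 4.08 to 4.48. Cxcl11 was called in none (adjusted p from 0.0816 to 0.551) and turned to -0.42 as the mean of its probe sets; the fall of 1419698_at was called without any 1 array (-1.45 to -1.04). Over all genes 5226 were called, 1417 with the Xist term and 1497 with the melanocyte covariate; over probe sets 8457, and 5585 to 9640 with 1 array left out, lowest without Bach2-deficient replicate 2. Median centring moved the median of all genes from -0.06 to -0.22 and the share of calls that rose from 56.7% to 32.2%, repeated quantile normalization to 48.4%. The Xist term moved that share to 72.7%, the covariate to 68.2%.

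With the replicate block, which treats tumors of equal number as pairs, 4952 genes were called. Deviations of equal numbers correlated from 0.01 to 0.32, and 2 of 5 correlated best with their own number. These values do not settle whether equal numbers pair the tumors. The block moved the SE from 0.52 to 0.35 for Cxcl9, 0.22 to 0.13 for Cxcl11 and 0.26 to 0.20 for Cxcl16. It moved from 0.32 to 0.11 for Cxcr3 and from 0.34 to 0.21 for Cxcr6, but stayed at 0.17 for Cxcl10. For pairs of genes the block can give no p under 0.0625, which 3.07 (Cxcl9 minus Cxcr3), -1.89 (Cxcl11 minus Cxcr3) and -2.28 (Cxcl16 minus Cxcr6) reached. Pairs near 0 changed sign: Cxcr3 minus Cd3e ran from -0.072 to 0.32 with 1 array left out, Cxcr6 minus Cd8a from -0.37 to 0.18 and Cxcl16 minus Csf1r from -0.17 to 0.26. As means of probe sets the last 2 were -0.17 and -0.14.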
